A study of Mus musculus with 36 samples.

Results

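XY and XX germ cells were compared at the stage labelled TS34, which the labels place after the gonads have differentiated by sex. The comparison used the 6 arrays titled as Oct4 germ cells of that stage, 3 from XY and 3 from XX fetuses, of 36 arrays in the series. The cells came from mouse progeny of C57BL/6NJ on a mixed background and carried an Oct4 reporter in both sexes, so that a germ cell entered the sample only while the reporter was on. Embryos of time-mated females were taken, their gonads were pooled by sex, taken apart with trypsin, given DAPI to mark dead cells and sorted on a cytometer, with no other treatment named. The labels give no age in days. They do not say whether the replicates are separate pools, so p-values measure only how far arrays of a group scatter, which could be technical scatter. That scatter was estimated from 35 of the 36 arrays together, not from the 6 arrays alone. Germ cells of the same reporter at TS24 and TS13 (6 arrays each) serve below as reference. So do sorted supporting cells, the somatic cells that become Sertoli or pregranulosa cells. Arrays of these groups also entered the shared estimate of spread, the choice of genes tested and the quantile normalization. At TS34 the supporting cell arrays are titled Sry in XX and Sox9 in XY, so sex and reporter cannot be told apart there. Total RNA was read on a gene-level Affymetrix array, whose values are log2 expression.

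Germ cells of the fetal gonad take one of a pair of courses. In the ovary they start meiosis: retinoic acid and BMP signals from the somatic cells switch on Stra8 and its partner, the chromosomes build a protein axis, and programmed DNA breaks are made and repaired from the homologue. In the testis the germ cells stay out of meiosis and stop dividing, while Nodal, its co-receptor Tdgf1 and the RNA-binding protein Nanos2 act in the male programme, and the piRNA machinery and new DNA methylation come to silence transposons.

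A gene was called where its two-sided limma p, adjusted by Benjamini-Hochberg over the 17615 genes tested, lay under 0.05. Each difference below is XY minus XX on the log2 scale ± its standard error, with 3 arrays a group, unless stated. Values for single arrays are given in the order of replicates 1, 2 and 3. The medians of the 6 arrays ran from 6.412 to 6.84, with XX replicate 1 and XY replicates 2 and 3 at the upper end. Pairs of arrays of 1 sex correlated at 0.9713 to 0.9848 over all probe sets and pairs of opposite sex at 0.9534 to 0.9707. In bulk samples, a smaller share of cells with a transcript and less RNA per cell cannot be told apart.

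The arrays followed their labels. Eif2s3y, a translation factor gene on the Y chromosome, was at 4.99, 4.28 and 4.32 on the XX arrays and 9.63, 9.95 and 10.05 on the XY arrays. Of 7 Y-linked genes tested 6 were called higher in XY, the ubiquitin-activating enzyme gene Uba1y by 4.93 ± 0.20, the demethylase gene Kdm5d by 3.21 ± 0.21, the zinc-finger gene Zfy1 by 2.89 ± 0.22, Uty by 2.55 ± 0.24 and Usp9y by 1.22 ± 0.22. The testis-determining gene Sry, which acts in supporting cells at earlier stages, was not called (0.18 ± 0.21). The 10 germ cell identity genes averaged 9.18 to 9.69 on the XX arrays and 9.39 to 9.89 on the XY arrays, against 5.65 to 6.29 on the supporting cell arrays of TS34. Ddx4, the germ cell RNA helicase, differed by -0.26 ± 0.27 and was not called. Pou5f1, the gene that the Oct4 reporter reads, was called higher in XY (0.91 ± 0.25), with overlapping values of 10.64, 9.77 and 9.53 on the XX arrays and 10.57, 11.08 and 11.02 on the XY arrays. Of this list 3 members were higher and 1 was lower; without XX replicate 3 or XY replicate 3 only 1 was higher, without XX replicate 1 none was lower, and with all 36 arrays in the fit 1 was higher and none lower.

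XY and XX germ cells at TS34 differed in 1844 genes (10.5% of those tested), of which 1061 were higher (6.02%) and 783 lower (4.45%) in XY. Counts of list members are to be read beside these shares. After quantile normalization, which gives every array the same distribution, the count was 2258 (12.8%), with 1121 higher and 1137 lower, and 1813 genes (10.3%) were called in the same direction under both (1030 higher and 783 lower). The median difference of all genes was 0.06 on the deposited values and 0.00 after quantile normalization. Differences past 1 on the log2 scale, or 2-fold, were called for 366 higher (2.08%) and 332 lower genes (1.88%), and past 2 for 36 and 37 genes (0.204% and 0.21%). The 3 XY arrays lay above the 3 XX arrays for 1328 genes (7.54%) and below them for 1501 (8.52%). The split between higher and lower moved with the overall level of the arrays. Weighting the arrays by their fit to their group gave 5066 calls, 4261 higher and 805 lower, with the median of all genes at 0.265. Leaving out 1 array gave between 1204 calls without XX replicate 3 (550 higher, 654 lower) and 2533 without XY replicate 1 (1992 higher, 541 lower). With all 36 arrays in the fit, the library of germ cells XX TS24 replicate 3 included, whose germ cell markers are low, 1291 genes were called. A fit on the 6 arrays alone called 1402 genes (766 higher, 636 lower), and a fit on germ cell arrays only called 1609.

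**Figure D1:**
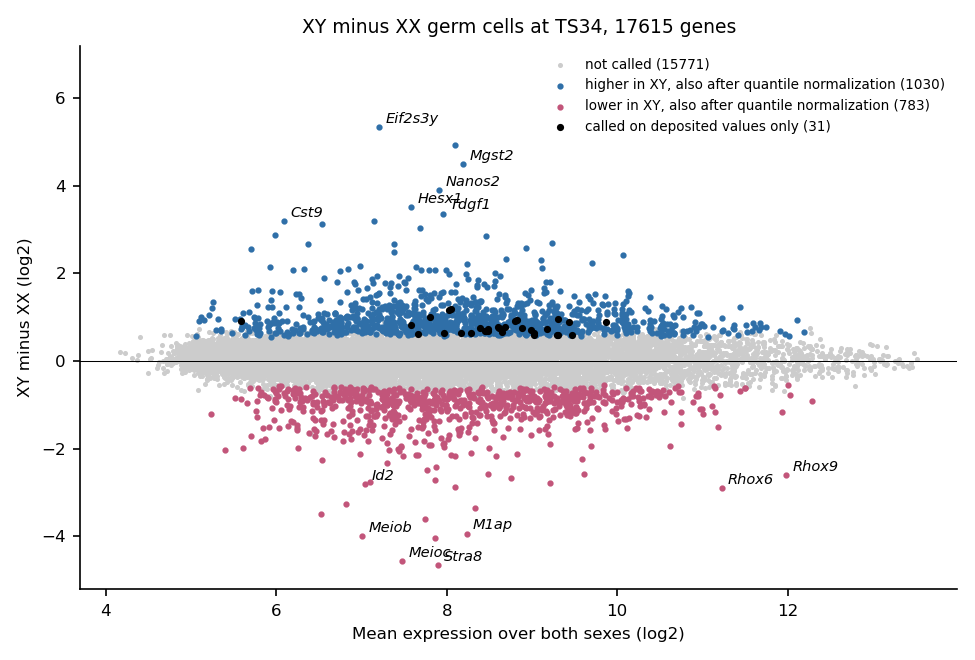
Difference between XY and XX germ cells at TS34 (log2, vertical axis) against mean expression over both sexes (log2, horizontal axis) for 17615 genes. Blue and red points are genes called higher (1030) or lower (783) in XY both on the deposited values and after quantile normalization, black points the 31 called on the deposited values alone, grey points the rest.

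The 4 marker genes parted the sexes without overlap. Stra8, which drives entry into meiosis, was at 10.40, 10.06 and 10.21 on the XX arrays and 5.13, 5.77 and 5.82 on the XY arrays, a difference of -4.65 ± 0.22 (adjusted p = 8.58e-23). The XY arrays were near the level of XX supporting cells, where the mean of Stra8 was 5.30. Meioc, which keeps the meiotic programme going once it has begun, was at 9.53, 9.64 and 10.09 on the XX arrays and 4.96, 5.10 and 5.53 on the XY arrays and differed by -4.56 ± 0.29 (adjusted p = 2.99e-17). Both genes were high on all 3 XX arrays and low on all 3 XY arrays. Nanos2, the RNA-binding regulator of male fate, was at 5.85, 6.18 and 5.85 on the XX arrays and 9.67, 9.70 and 10.20 on the XY arrays, higher in XY by 3.90 ± 0.23 (adjusted p = 8.82e-19). The spread among the 3 XX arrays was small beside the gap to XY. Mgst2, a microsomal glutathione transferase gene, was at 6.36, 5.97 and 5.49 on the XX arrays and 10.07, 10.76 and 10.49 on the XY arrays, higher by 4.50 ± 0.33 (adjusted p = 5.61e-15). After quantile normalization these differences were -4.73, -4.63, 3.84 and 4.44.

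**Figure D2:**
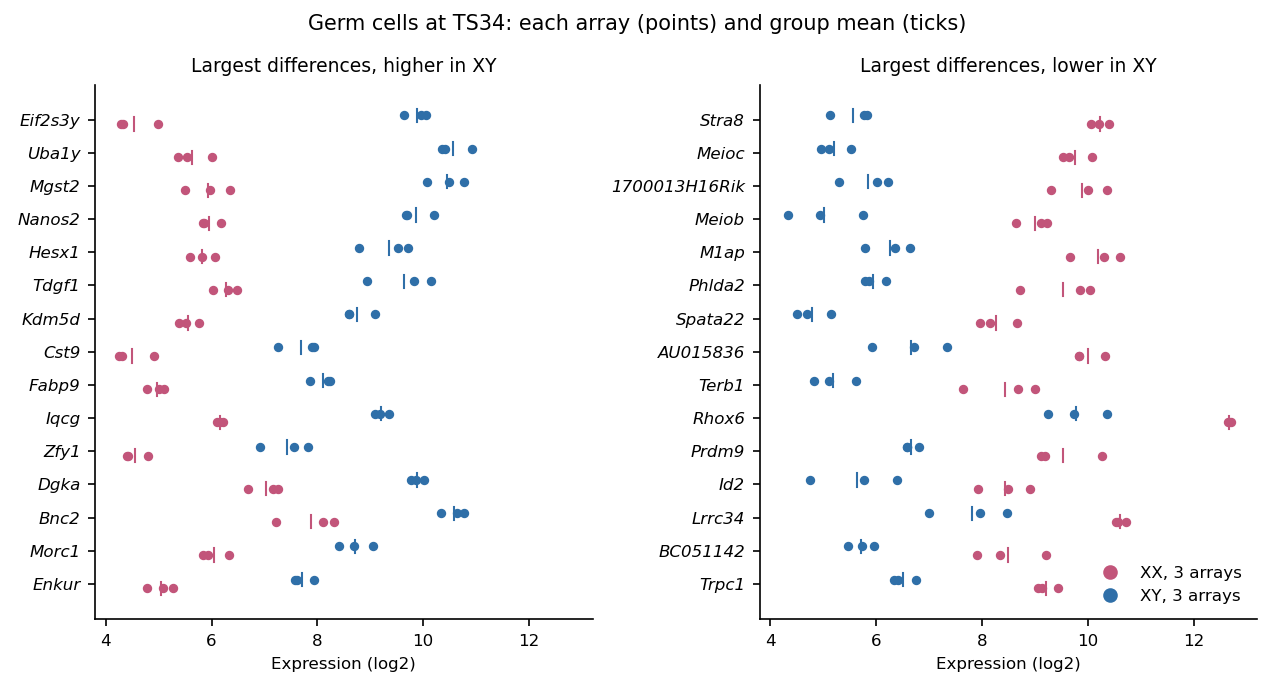
Expression (log2, horizontal axis) of the 15 genes with the largest difference in each direction, among called genes whose arrays do not overlap, in XX (red) and XY (blue) germ cells at TS34. Points are single arrays and ticks group means. Stra8 lies at 10.06 to 10.40 in XX and at 5.13 to 5.82 in XY, and Nanos2 at 5.85 to 6.18 and 9.67 to 10.20.

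The regulators of meiotic entry that were called were all lower in XY. Of 9 tested, 5 were lower and none higher, with a median difference of -0.78. Besides Stra8 and Meioc these were the meiotic cohesin gene Rec8 at -2.40 ± 0.23, Ythdc2, the RNA helicase that works with MEIOC, at -1.05 ± 0.32, and Rbm46, an RNA-binding protein of the same complex, at -0.78 ± 0.26. Rec8 was at 8.98, 9.10 and 9.15 on the XX arrays and 6.48, 6.65 and 6.88 on the XY arrays, with no overlap. Dazl, the RNA-binding protein that makes germ cells competent for either fate, was not called (-0.32 ± 0.27), and neither were the TFIID subunit gene Taf4b (-0.41 ± 0.21), Tcfl5 (0.30 ± 0.19) and Zglp1 (0.02 ± 0.20), a transcription factor downstream of BMP in the ovary. The count of lower members fell to 3 without XX replicate 1 or 3, without any 1 of the XY arrays, and with all 36 arrays in the fit.

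The promoters of these genes are shown because Stra8 is a known target of retinoic acid receptors, while other meiotic promoters hold letters linked to the STRA8 complex (CNCCTCAG), to E2F-type repressors (TTCCCGC) and to E-box proteins such as MAX (CACGTG). Each run is the 250 bases before the start of transcription in RefSeq (GRCm38.p6), 5′ to 3′ on the gene's strand, searched for these 3 strings and for AGGTCA, a retinoic acid receptor half-site, with every match on either strand in capitals. The Stra8 window is chr6:34920698-34920947 on the plus strand, with AGGTCA at positions -194 and -38.
Stra8: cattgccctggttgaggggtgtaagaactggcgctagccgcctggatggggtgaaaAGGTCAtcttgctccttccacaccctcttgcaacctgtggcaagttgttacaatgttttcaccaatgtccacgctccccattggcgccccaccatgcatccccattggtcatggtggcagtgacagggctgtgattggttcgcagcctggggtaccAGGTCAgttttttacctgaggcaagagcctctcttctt
The Meioc window is chr11:102665335-102665584 on the plus strand, with GCGGGAA, the reverse complement of TTCCCGC, at -228.
Meioc: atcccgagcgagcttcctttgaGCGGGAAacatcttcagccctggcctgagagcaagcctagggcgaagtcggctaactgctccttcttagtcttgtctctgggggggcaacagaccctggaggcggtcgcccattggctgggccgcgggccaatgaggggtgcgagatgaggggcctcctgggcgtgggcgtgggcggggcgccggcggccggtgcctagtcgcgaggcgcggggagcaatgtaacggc
The window of M1ap, a gene of crossover formation described below, is chr6:82946672-82946921 on the plus strand, with CTGAGGGG, which is CNCCTCAG on the other strand, at -111.
M1ap: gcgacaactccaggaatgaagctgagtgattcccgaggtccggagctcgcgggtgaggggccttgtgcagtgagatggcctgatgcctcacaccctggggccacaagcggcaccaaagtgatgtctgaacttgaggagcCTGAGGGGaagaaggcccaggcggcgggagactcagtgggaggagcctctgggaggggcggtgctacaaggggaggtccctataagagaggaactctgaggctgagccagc
Prdm9 has more than 1 start in RefSeq, and the window of the one farther upstream, chr17:15564355-15564604 on the minus strand, has TTCCCGC at -47 and CCCCTCAG at -41, which share 1 base; the window of the other start, chr17:15563332-15563581, holds none of the 4 strings.
Prdm9: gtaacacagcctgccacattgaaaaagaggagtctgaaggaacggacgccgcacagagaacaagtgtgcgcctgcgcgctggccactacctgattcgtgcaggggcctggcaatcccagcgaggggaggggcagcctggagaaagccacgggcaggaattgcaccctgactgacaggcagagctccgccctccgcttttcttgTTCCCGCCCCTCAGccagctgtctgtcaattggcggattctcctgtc
The window of the axis gene Hormad1, chr3:95559427-95559676 on the plus strand, has GCGGGAA at -95, AGGTCA at -73 and CACGTG at -57 and -20. A second start of Hormad1 in RefSeq, 2 bases on, has the same matches.
Hormad1: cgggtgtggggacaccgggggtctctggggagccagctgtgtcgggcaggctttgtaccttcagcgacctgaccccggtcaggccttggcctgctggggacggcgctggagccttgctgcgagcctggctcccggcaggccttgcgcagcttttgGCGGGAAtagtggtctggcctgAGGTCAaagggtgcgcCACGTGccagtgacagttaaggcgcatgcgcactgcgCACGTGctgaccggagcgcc

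Counted over all genes with such a window, the letters CNCCTCAG stood in 13.1% of 655 genes lower in XY, 7.73% of 828 higher genes and 8.26% of 12331 genes not called, with 8.46% over all genes tested and 6.42% of all 32851 windows of this length. TTCCCGC stood in 11.9%, 7.25% and 6.5% (all genes 6.8%, all windows 3.82%). The GC box GGGCGG, which reads the base composition of a promoter, stood in 69.0%, 60.0% and 53.6% (all genes 54.7%, all windows 32.7%), so the sets were not matched in that respect. CACGTG stood in 7.79% of lower, 12% of higher and 8.68% of uncalled genes (all genes 8.83%, all windows 6.02%). AGGTCA stood in 12.8%, 13.4% and 14.3% (all genes 14.2%, all windows 14%). Both strands were searched, and matches of different strings may overlap. These shares are descriptions, with no test, and a match is not a bound site.

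Genes of the meiotic chromosome axis, the cohesin ring and the synaptonemal complex, which zips homologues together, were lower in XY in 10 of 13 cases and higher in none (median -1.10). Tex12, of the central element, was lower at -2.18 ± 0.42 and its partner Syce1 at -1.94 ± 0.23. The cohesin genes Smc1b (-1.50 ± 0.26) and Stag3 (-1.01 ± 0.23) were lower too. Smc1b was at 12.43, 11.50 and 11.88 on the XX arrays and 10.22, 10.52 and 10.58 on the XY arrays, with no overlap. Hormad1, an axis protein that monitors synapsis, was at 10.42, 10.76 and 10.52 on the XX arrays and 8.78, 9.53 and 9.04 on the XY arrays, a difference of -1.45 ± 0.25. Sycp3, of the lateral element, was lower at -1.10 ± 0.27, but its XY mean of 9.83 was far above the 5.0 of XY supporting cells. Sycp2, its lateral element partner, differed by -0.05 ± 0.24 and was not called. With all 36 arrays in the fit 3 of the 13 were called lower.

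Genes that make and repair meiotic DNA breaks were lower in 18 of 25 cases and higher in none (median -0.89); after quantile normalization 19 were lower and 1, the checkpoint ATPase gene Trip13, was higher. Meiob, whose protein binds single-stranded DNA, was at 9.11, 8.65 and 9.24 on the XX arrays and 4.34, 5.75 and 4.94 on the XY arrays and differed by -3.99 ± 0.27. Its partner Spata22 was at 8.16, 7.97 and 8.67 on the XX arrays and 4.50, 4.69 and 5.15 on the XY arrays, a difference of -3.49 ± 0.20. M1ap, of a complex that stabilises recombination intermediates, was at 10.31, 9.67 and 10.62 on the XX arrays and 5.80, 6.36 and 6.64 on the XY arrays, a difference of -3.93 ± 0.21. All 3 were without overlap between the sexes. Prdm9, the histone methyltransferase that places the breaks, was lower at -2.86 ± 0.25, and Dmc1, the meiotic recombinase, at -2.57 ± 0.29. Shoc1, whose protein works with M1AP, was lower at -1.62 ± 0.22 and the helicase gene Hfm1 at -1.41 ± 0.25. The break-forming enzyme gene Spo11 was lower at only -0.83 ± 0.23. Mei4 (-0.22 ± 0.20), Mlh3 (0.01 ± 0.23), Psmc3ip (-0.04 ± 0.22) and Tex11 (-0.04 ± 0.22) were not called. Of these 25 genes 12 were lower without XX replicate 3, 15 without XY replicate 2 and 16 with all 36 arrays. Of the genes that tie meiotic telomeres to the nuclear envelope, 3 of 6 were lower: Terb1 at -3.26 ± 0.23, Majin at -1.25 ± 0.23 and Terb2 at -0.90 ± 0.20. After quantile normalization 4 of the 6 were lower. Terb1 was at 9.01, 7.65 and 8.69 on the XX arrays and 4.82, 5.11 and 5.61 on the XY arrays. The linker gene Sun1 differed by 0.59 ± 0.23 and was not called, though it was called higher without XX replicate 1 or without XY replicate 1.

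**Figure D3:**
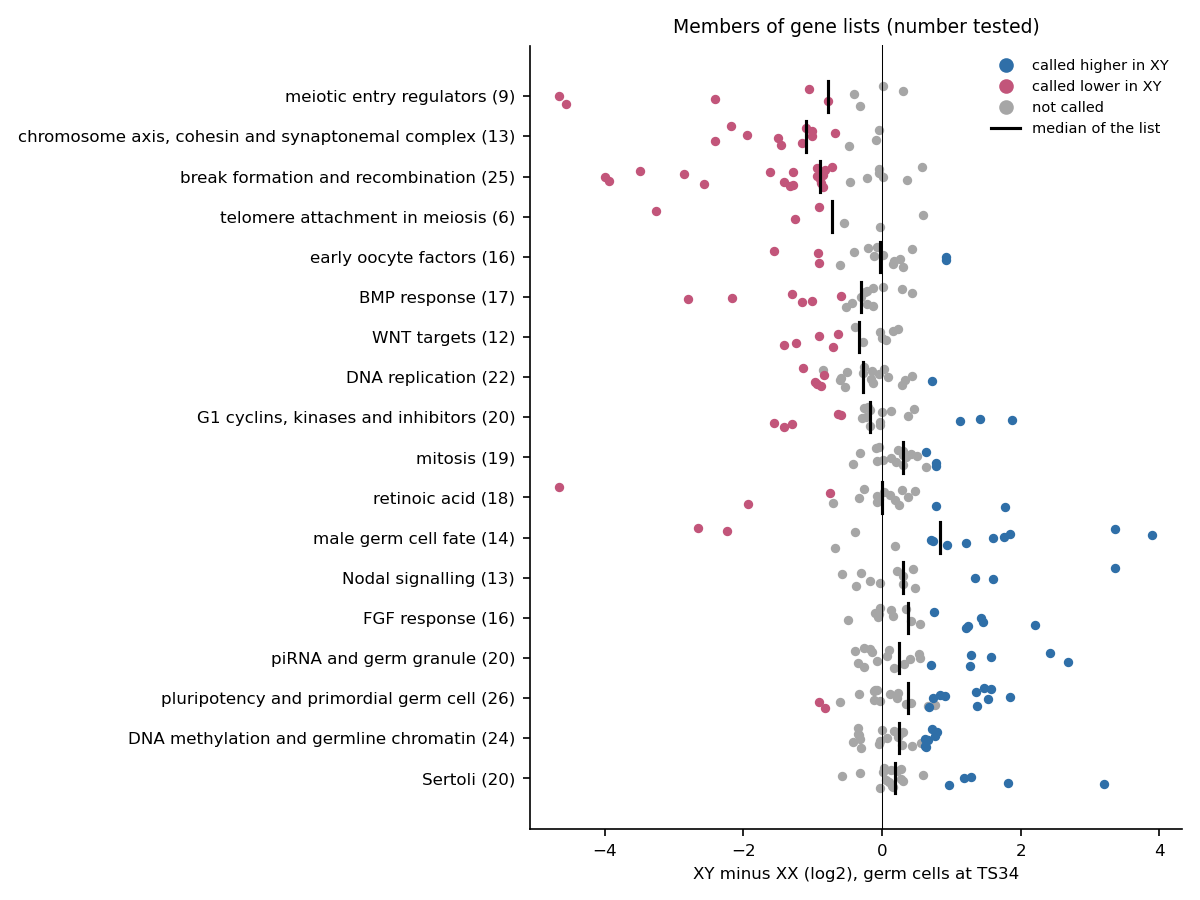
Difference between XY and XX germ cells at TS34 (log2, horizontal axis) for the tested members of 18 gene lists (number tested in brackets). Blue and red points are members called higher or lower in XY, grey points members not called, and black bars the median of each list, from -1.10 for the chromosome axis list to 0.84 for male germ cell fate.

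Of 14 genes tied to male germ cell fate 9 were higher in XY and 2 lower (median 0.84, against 0.06 over all genes). The higher count was 6 without XX replicate 3 or XY replicate 3, and 7 with all 36 arrays or with the 6 arrays alone. After quantile normalization 9 were higher and 3 lower. Tdgf1, the Nodal co-receptor, was at 6.48, 6.32 and 6.02 on the XX arrays and 8.94, 9.83 and 10.14 on the XY arrays and differed by 3.37 ± 0.26. Nanos3, which protects germ cells and is related to Nanos2, was higher by 1.84 ± 0.22, the LIM homeobox gene Lhx1 by 1.76 ± 0.23 and Dnd1, an RNA-binding partner of NANOS2, by 0.94 ± 0.24. Nanos3 was at 7.86, 7.64 and 7.44 on the XX arrays and 9.10, 9.80 and 9.56 on the XY arrays, without overlap. The 2 members lower on the deposited values were Tex101, a membrane protein of germ cells, at -2.66 ± 0.22, and the X-linked homeobox gene Rhox13 at -2.24 ± 0.33. Tex101 was at 10.32, 9.45 and 10.50 on the XX arrays and 7.72, 6.92 and 7.65 on the XY arrays. Cyp26b1, the retinoic acid-degrading enzyme, differed by 0.19 ± 0.22 and was not called.

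Of 13 Nodal signalling genes 3 were higher, against 6.02% of all genes, and none lower (median 0.31). They were Tdgf1 and the feedback inhibitors Lefty1, at 1.60 ± 0.24, and Lefty2, at 1.34 ± 0.23, both known targets of the pathway. Lefty1 was at 5.38, 5.15 and 4.91 on the XX arrays and 6.34, 6.92 and 6.99 on the XY arrays, without overlap. The ligand gene Nodal was not called (0.31 ± 0.20; 95% interval -0.10 to 0.72), nor were the receptor genes Acvr1b (0.48 ± 0.19) and Acvr2b (0.31 ± 0.19) or the signal transducers Smad2 (-0.30 ± 0.21) and Smad3 (0.21 ± 0.23). The convertase gene Pcsk6 (-0.58 ± 0.23) was called lower only after quantile or median scaling. In the FGF response list 6 of 16 genes were higher and none lower (median 0.38). The ETS factor genes Etv1 and Etv5, which FGF signals induce, were higher by 2.21 ± 0.25 and 1.45 ± 0.25, the receptor gene Fgfr2 by 1.43 ± 0.23, and the ERK phosphatase genes Dusp6 and Dusp4 by 1.25 ± 0.30 and 1.21 ± 0.26. Etv1 was at 7.54, 6.82 and 7.02 on the XX arrays and 9.02, 9.40 and 9.60 on the XY arrays. Every XY value of Etv1 was above every XX value, whereas those of Dusp6 overlapped. Fgfr1 (-0.49 ± 0.22) was called lower only after quantile or median scaling.

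Several Sertoli cell genes were also higher in XY germ cell samples, 5 of 20, against 6.02% of all genes, with none lower. After quantile normalization 5 were higher and 1 lower. Cst9, a cystatin gene of the fetal testis, was at 4.90, 4.31 and 4.25 on the XX arrays and 7.25, 7.90 and 7.93 on the XY arrays and differed by 3.20 ± 0.30. The defensin gene Defb19 was higher by 1.81 ± 0.29, the steroid enzyme gene Hsd17b3 by 1.28 ± 0.21, Gatm by 1.18 ± 0.25 and Clu by 0.96 ± 0.24. In XY supporting cells of the same stage Cst9 averaged 12.56 and Defb19 12.47, well above the germ cell samples. The defining Sertoli genes Sox9 (0.28 ± 0.21), Amh (0.15 ± 0.21) and Dhh (0.10 ± 0.21) were not called. In XY supporting cells they averaged 11.03, 9.84 and 7.67, and in XY germ cells 7.70, 6.19 and 5.82. The mean of the 20 genes was 6.53 to 6.89 on the XX arrays, 6.86 to 7.43 on the XY arrays and 10.07 to 10.25 in XY supporting cells. Of the genes named above, Etv5 and Dusp6 are also well expressed by XY supporting cells, with means of 10.74 and 8.67, whereas those of Nanos2, Tdgf1 and Hesx1 were 5.82, 5.72 and 5.40. The part of Sertoli cell RNA in the differences was not tested. Of 14 pregranulosa genes Cdkn1b was higher and Msx1 lower, and none of 11 interstitial, 10 endothelial, 9 macrophage or 6 erythroid genes was called. Among 8 genes of mesonephric epithelium, the adhesion genes Cdh1 (1.86 ± 0.19) and Epcam (0.85 ± 0.22), which germ cells also make, and the keratin gene Krt8 (0.70 ± 0.22) were higher, and Krt18 lower (-0.77 ± 0.25). The defining kidney-duct genes Pax2 (0.37 ± 0.20) and Pax8 (0.26 ± 0.21) were not called. Without XY replicate 2 and with all 36 arrays 1 of these 8 was higher, and Krt18 was not called in 5 of the 6 fits that left out 1 of these arrays. Of 12 dissociation stress genes 1 was called, against 10.5% of all genes. It was Zfp36, higher by 1.21 ± 0.22.

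Of 20 genes of the piRNA pathway and germ granules, 6 were higher in XY, against 6.02% of all genes, and none lower (median 0.24). Morc1, needed to silence transposons in male germ cells, was at 6.33, 5.94 and 5.84 on the XX arrays and 8.69, 8.41 and 9.04 on the XY arrays, a difference of 2.68 ± 0.23. The Tudor-domain gene Tdrd5 was at 9.28, 8.63 and 8.65 on the XX arrays and 11.10, 11.21 and 11.52 on the XY arrays, a difference of 2.42 ± 0.22. XY values of both were above all XX values. Piwil4, the PIWI protein that guides DNA methylation in the fetal testis, was higher by 1.57 ± 0.20, Tdrd1 by 1.28 ± 0.23, Exd1 by 1.27 ± 0.25 and Gtsf1 by 0.71 ± 0.22. The other PIWI genes Piwil2 (0.55 ± 0.27) and Piwil1 (0.40 ± 0.20) were not called, nor was Mael (-0.35 ± 0.22). DNA methylation and germline chromatin genes were higher in 7 of 24 cases and lower in none (median 0.25). They included the demethylating dioxygenase gene Tet1 at 0.79 ± 0.25, the arginine methyltransferase gene Prmt5 at 0.76 ± 0.21 with its partner Wdr77 at 0.72 ± 0.22, the de novo methyltransferase gene Dnmt3a at 0.64 ± 0.19, and L3mbtl2, Max and E2f6 of a repressor complex that holds meiotic genes off, at 0.66 ± 0.23, 0.62 ± 0.21 and 0.61 ± 0.21. None of the 7 was called without XX replicate 3 or without XY replicate 3. When either XX replicate 2 or XY replicate 2 was left out, the count was 2, as with all 36 arrays and with the 6 arrays alone, and it was 3 with germ cell arrays only. The maintenance methyltransferase gene Dnmt1 was not called (-0.30 ± 0.22).

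Pluripotency and primordial germ cell genes were higher in 10 of 26 cases and lower in 2 (median 0.38). The RNA-binding gene L1td1 was higher by 1.53 ± 0.25, the chromatin factor gene Utf1 by 1.57 ± 0.25, Zfp42 by 1.47 ± 0.23, Dppa4 by 1.38 ± 0.24 and Tcl1 by 1.36 ± 0.23. Utf1 was at 9.51, 9.93 and 8.64 on the XX arrays and 10.59, 11.00 and 11.17 on the XY arrays, without overlap. The core factor Nanog was higher by 0.74 ± 0.24 with overlapping values, while Sox2 (0.23 ± 0.22) was not called. The stem cell factor receptor gene Kit, at -0.90 ± 0.22, and the phosphatase gene Alpl, at -0.83 ± 0.24, were lower. When either XX replicate 3 or XY replicate 3 was left out, the count of higher members was 6, and without XY replicate 1 or 2 that of lower members was 1. With all 36 arrays 4 were higher and none lower. After quantile normalization 10 were higher and 3 lower.

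Genes that respond to BMP were lower in XY in 6 of 17 cases and higher in none (median -0.31). Id2, an inhibitor of helix-loop-helix factors that BMP induces, was at 8.91, 8.49 and 7.93 on the XX arrays and 4.76, 6.39 and 5.78 on the XY arrays, a difference of -2.80 ± 0.31. Id3 was at 8.95, 9.52 and 9.06 on the XX arrays and 6.57, 7.36 and 7.12 on the XY arrays, a difference of -2.16 ± 0.24. In both genes the XY arrays lay under all XX arrays. The homeobox genes Msx2 and Msx1 were lower at -1.30 ± 0.22 and -0.59 ± 0.20, Gata2 at -1.15 ± 0.20 and Id1 at -1.0 ± 0.23. The receptor genes Bmpr1a (-0.22 ± 0.22) and Bmpr2 (-0.43 ± 0.21) and the transducers Smad1 (0.43 ± 0.23) and Smad5 (-0.24 ± 0.21) were not called. WNT targets were lower in 5 of 12 cases and higher in none (median -0.33): the cyclin gene Ccnd1 at -1.41 ± 0.25, the caudal homeobox gene Cdx2 at -1.25 ± 0.21, and the feedback inhibitors Nkd1 at -0.91 ± 0.23, Axin2 at -0.70 ± 0.21 and Notum at -0.64 ± 0.20. Without XX replicate 1 or XY replicate 1, and with germ cell arrays only, 3 of them were lower. Lef1 (0.06 ± 0.21) and Lgr5 (0.00 ± 0.22) were not called.

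The retinoic acid list moved in both directions, with 2 of 18 members higher and 3 lower (median -0.01). Over all genes the shares were 6.02% and 4.45%. After quantile normalization 2 members were higher and 4 lower. Apart from Stra8, the binding protein gene Crabp1 was lower, at 11.38, 11.88 and 11.51 on the XX arrays and 9.21, 9.93 and 9.81 on the XY arrays, a difference of -1.94 ± 0.27. The retinol dehydrogenase gene Rdh10 was lower at -0.75 ± 0.21. The enzyme genes Aldh1a1 and Aldh1a2, which make retinoic acid, were higher by 1.78 ± 0.23 and 0.77 ± 0.22. Aldh1a1 averaged 11.46 in XY supporting cells, against 8.02 in XY germ cells. None of the 6 receptor genes tested was called, Rara at 0.38 ± 0.21, Rarb at -0.07 ± 0.22 and Rarg at 0.11 ± 0.21 among them. With all 36 arrays, or without XX replicate 2 or XY replicate 2 or 3, 1 member was higher.

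In the G1 part of the cell cycle, where male germ cells come to rest, 3 of 20 genes were higher and 5 lower (median -0.17). The kinase genes Cdk6 and Cdk4 were higher by 1.87 ± 0.30 and 1.12 ± 0.22 and the kinase inhibitor gene Cdkn1b, which codes for p27, by 1.41 ± 0.33. Cdkn1b was at 8.03, 8.09 and 7.55 on the XX arrays and 9.21, 9.16 and 9.52 on the XY arrays, without overlap. Among the cyclin genes that drive entry into S phase, those called lower were Ccne2 at -1.55 ± 0.28, Ccnd1 at -1.41 ± 0.25 and Ccne1 at -1.30 ± 0.24. Ccne1 was at 9.75, 9.40 and 9.72 on the XX arrays and 8.21, 8.58 and 8.18 on the XY arrays, without overlap. The inhibitor genes Cdkn2d (-0.63 ± 0.21) and Cdkn2c (-0.59 ± 0.20) were also lower, and Cdkn2b (0.37 ± 0.20), Rb1 (0.46 ± 0.21) and E2f1 (-0.01 ± 0.20) were not called. The lower count was 3 without XX replicate 2 or 3, without XY replicate 1 or 3, with all 36 arrays, with germ cell arrays only and with the 6 arrays alone. Of 22 DNA replication genes 5 were lower and 1 higher (median -0.27), and 10 were lower after quantile normalization. The ribonucleotide reductase gene Rrm2 was lower at -1.13 ± 0.24, the licensing inhibitor gene Gmnn at -0.97 ± 0.25, Gins1 at -0.94 ± 0.26 and the origin factors Cdc6 and Orc1 at -0.89 ± 0.25 and -0.84 ± 0.23, while Mcm10 was higher by 0.73 ± 0.20. The lower count was 1 without XY replicate 1, 3 without XX replicate 2, 8 without XY replicate 2 and 2 with all 36 arrays, and Mcm10 was not called without XX replicate 3, without XY replicate 2, with all 36 arrays and with the 6 arrays alone. Of 19 mitosis genes 3 were higher, against 6.02% of all genes, and none lower. They were the checkpoint kinase gene Bub1b at 0.78 ± 0.24, Aurkb at 0.78 ± 0.25 and Ndc80 at 0.64 ± 0.22. None of the 3 was called without XX replicate 2 or 3, without XY replicate 2 or 3, or with all 36 arrays. The proliferation marker Mki67 (-0.32 ± 0.23; 95% interval -0.78 to 0.14) was not called. Among 13 cell death genes 1 was called, against 10.5% of all genes. It was the BH3-only gene Pmaip1, higher in XY by 1.89 ± 0.23. After quantile normalization 1 of the 13 was higher and 1 lower. Pmaip1 was at 7.08, 6.39 and 6.35 on the XX arrays and 7.69, 8.87 and 8.93 on the XY arrays.

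Of 16 tested early oocyte factors, genes of the forming oocyte and its coat, 2 were higher and 3 lower (median -0.03). Over all genes 6.02% were higher and 4.45% lower. The cold-shock domain gene Ybx2 was lower in XY at -1.55 ± 0.21, the helix-loop-helix factor gene Sohlh2 at -0.93 ± 0.20 and Kit as above. The maternal-effect genes Nlrp5 and Ooep were higher, by 0.92 ± 0.22 and 0.92 ± 0.25. The zona pellucida genes Zp1 (0.43 ± 0.19), Zp2 (-0.20 ± 0.20) and Zp3 (-0.07 ± 0.23) and the oocyte factors Figla (-0.61 ± 0.21), Nobox (0.26 ± 0.21) and Lhx8 (0.17 ± 0.22) were not called; Figla was called lower after quantile normalization. When either XX replicate 3 or XY replicate 3 was left out, the count of higher members was 1, without XY replicate 1 it was 4, and with all 36 arrays 1 member was lower.

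Some of the largest differences belonged to genes on no list. The homeobox gene Hesx1 was at 6.06, 5.83 and 5.59 on the XX arrays and 8.79, 9.72 and 9.53 on the XY arrays, a difference of 3.52 ± 0.22. Fabp9, a fatty acid binding protein of the sperm head, was higher in XY by 3.14 ± 0.34. Iqcg and Enkur, known from cilia and sperm tails, were higher by 3.04 ± 0.26 and 2.67 ± 0.22, the lipid kinase gene Dgka by 2.85 ± 0.22 and the zinc-finger gene Bnc2 by 2.70 ± 0.24. Iqcg was at 6.10, 6.17 and 6.23 on the XX arrays and 9.08, 9.17 and 9.35 on the XY arrays, with a narrow spread in both sexes. In the other direction, the imprinted gene Phlda2 was at 9.85, 10.04 and 8.73 on the XX arrays and 5.79, 5.87 and 6.18 on the XY arrays, a difference of -3.59 ± 0.23. The leucine-rich repeat gene Lrrc34 was lower in XY at -2.79 ± 0.30, BC051142 at -2.76 ± 0.24 and the cation channel gene Trpc1 at -2.71 ± 0.22. The 15 largest differences in each direction were taken from 827 higher and 736 lower genes that were called under both scalings without overlap. Each of these 30 genes kept its direction and its call in all 750 values recomputed under the other settings. Their choice as the largest differences called under both scalings largely fixed that outcome.

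The X chromosome had the highest share of genes lower in XY, a share that was not tested against the autosomes. Of 611 X-linked genes 112 were lower (18.3%) and 33 higher (5.4%), with a median difference of -0.086. On the autosomes 1.56% to 5.59% of genes were lower and 4.27% to 8.69% higher. The X-linked gene 1700013H16Rik, of the Xlr family, was at 10.01, 9.30 and 10.36 on the XX arrays and 6.01, 5.31 and 6.23 on the XY arrays, a difference of -4.04 ± 0.25. The long non-coding RNA gene AU015836 was lower in XY germ cells at -3.35 ± 0.27. Its means in supporting cells were 11.31 in XY, titled Sox9, and 5.83 in XX, titled Sry. Xlr was lower at -2.57 ± 0.32. The Rhox cluster of X-linked homeobox genes did not move as one. Rhox6 was at 12.70, 12.64 and 12.68 on the XX arrays and 9.25, 10.36 and 9.73 on the XY arrays, a difference of -2.89 ± 0.25, and Rhox9 was lower at -2.60 ± 0.34. Rhox10 was higher by 1.0 ± 0.21, and Rhox1 (-0.24 ± 0.20), Rhox8 (0.03 ± 0.27) and Rhox12 (0.34 ± 0.20) were not called. The 5 X-linked genes with the largest differences higher in XY were Gm1141 at 2.07 ± 0.22, the mRNA export factor gene Nxf2 at 1.89 ± 0.26, Xkrx at 1.87 ± 0.25, the kinase gene Map3k15 at 1.80 ± 0.20 and the glypican gene Gpc4 at 1.54 ± 0.20. Of the X-linked copies of Y-linked genes, the demethylase gene Kdm6a was lower at -1.11 ± 0.23, while Eif2s3x (-0.19 ± 0.21), Kdm5c (-0.37 ± 0.21) and Ddx3x (0.09 ± 0.19) were not called; after quantile normalization 3 of the 6 were lower. Xist, whose RNA coats an X chromosome that is silenced, was at 7.09, 6.86 and 6.78 on the XX arrays and 6.13, 5.98 and 6.64 on the XY arrays and was not called. The lower X-linked count ranged from 86 to 115 when single arrays were left out, and the higher one from 18 without XY replicate 3 and 21 without XX replicate 3 or XY replicate 2 to 53 without XY replicate 1. With all 36 arrays 19 were higher.

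**Figure D4:**
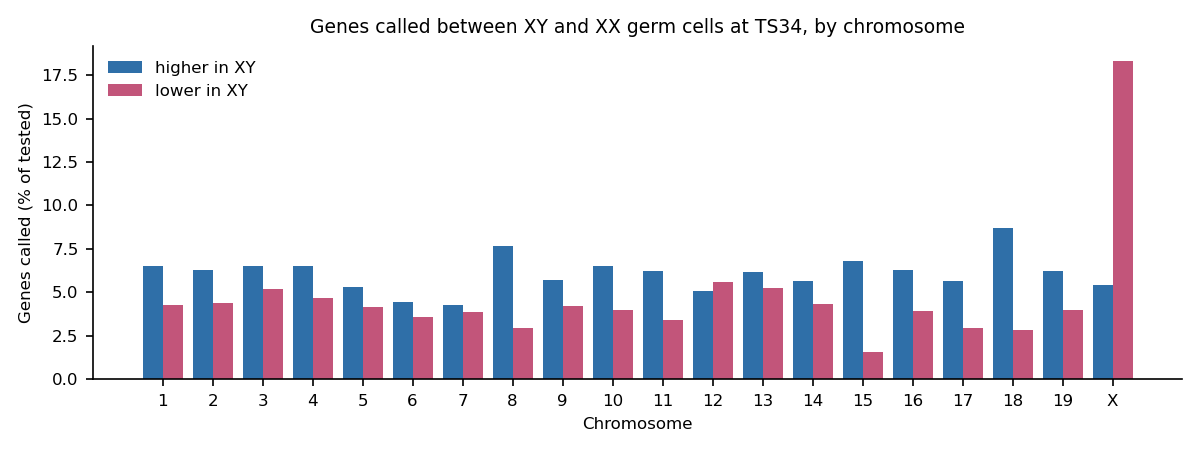
Share of tested genes called higher (blue) or lower (red) in XY germ cells at TS34 (percent, vertical axis) for each autosome and the X chromosome (horizontal axis). The X chromosome has 18.3% of its genes lower in XY, where no autosome exceeds 5.59%.

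Small RNA genes were looked at after their values had been seen. Small nucleolar RNAs guide chemical modification of ribosomal RNA and are mostly cut from introns of host genes. Of 51 tested, 19 were higher in XY (37.3%, against 6.02% of all genes) and none lower, 17 and none after quantile normalization, with a median difference of 0.632. Over the 51 the median was 8.13, 7.57 and 7.82 on the XX arrays and 8.65, 8.41 and 8.69 on the XY arrays. Snora73a was at 8.81, 8.23 and 8.21 on the XX arrays and 9.45, 9.94 and 9.87 on the XY arrays, a difference of 1.34 ± 0.24, and Snord52 at 5.66, 5.77 and 4.98 on the XX arrays and 6.97, 6.94 and 7.06 on the XY arrays, a difference of 1.52 ± 0.27. For 14 of the 19 the sexes did not overlap. Of the 19, Snord35b, without overlap, and Snord57, with overlap, were not called after quantile normalization. Over all genes, 827 of the 1030 called higher under both scalings did not overlap, a set chosen more strictly than the 19. The count of snoRNAs called higher was 9 without XX replicate 3, 10 without XX replicate 2 or XY replicate 3, 12 without XY replicate 2 and 10 with all 36 arrays. Whether small RNA was recovered to the same degree in every sample was not tested.

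Of 185 miRNA genes 5 were higher (2.7%, against 6.02% of all genes) and 2 lower in XY (1.08%, against 4.45%), so these shares lay below those of all genes. The higher count was 15 without XY replicate 1, 8 without XX replicate 1, 2 without XX replicate 3, 3 without XY replicate 2 or 3 and with all 36 arrays, and 34 with array weights. The array reads the gene or its precursor, and the mature miRNAs were not measured. Among the higher genes 3 belong to one cluster on chromosome 14, and their mature forms as RefSeq gives them (GRCm38.p6) are shown with the seed, bases 2 to 8, in capitals because 2 of them share it. miR-17-5p (chr14:115043684-115043706) and miR-20a-5p (chr14:115044183-115044205) have the same seed, and that of miR-18a-5p (chr14:115043867-115043889) differs; all lie on the plus strand.
miR-17-5p: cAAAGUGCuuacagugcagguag
miR-20a-5p: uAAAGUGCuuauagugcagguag
miR-18a-5p: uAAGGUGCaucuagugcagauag
Mir17 was at 6.21, 5.78 and 5.35 on the XX arrays and 6.90, 6.86 and 6.74 on the XY arrays, a difference of 1.05 ± 0.24. Mir18 was higher by 1.27 ± 0.29 and Mir20a by 0.95 ± 0.29; Mir18 was not called without XX replicate 3, and Mir20a without XX replicate 3, without XY replicate 2 and with all 36 arrays. The 2 lower genes were the X-linked Mir505, at 8.93, 8.51 and 8.21 on the XX arrays and 6.87, 6.67 and 6.58 on the XY arrays, a difference of -1.85 ± 0.36, and Mir181b-2, at -1.23 ± 0.29, which was not called with all 36 arrays and with array weights. Their mature forms are miR-505-3p (chrX:60394416-60394437, minus strand) and miR-181b-5p (chr2:38853845-38853868, plus strand).
miR-505-3p: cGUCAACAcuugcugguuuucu
miR-181b-5p: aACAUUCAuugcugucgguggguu
The other higher genes were Mir677 (1.09 ± 0.30) and Mir680-2 (0.74 ± 0.23). Mir677 was not called without XX replicate 2 or XY replicate 3, and Mir680-2 without XX replicate 1 or 3, without XY replicate 2 or 3, with all 36 arrays and with the 6 arrays alone.

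Fewer genes parted the sexes at the earlier stages. At TS13, 5 genes were called (0.0284%), all Y-linked and higher in XY: Eif2s3y at 5.21 ± 0.22, Uba1y, Kdm5d, Uty and Zfy1. At TS24, where 2 XX arrays stood against 3 XY arrays because the library with low germ cell markers was left out, 344 genes were called (1.95%), 87 higher (0.494%) and 257 lower (1.46%); after quantile normalization 742 were called (4.21%). TS24 and TS34 share no arrays, but both differences come from 1 fit with 1 estimate of spread per gene. Their lists are therefore not independent. The genes higher in XY at TS24 also include 5 Y-linked genes. Of the 87 genes higher in XY at TS24, 71 were higher at TS34 (81.6% of the TS24 list and 6.69% of the TS34 list), and of the 257 lower genes 113 were lower (44.0% and 14.4%). The TS24 count was 88 without XX replicate 2 and 143 without XY replicate 2 of that stage. The difference itself changed between TS24 and TS34 for 201 genes (1.14%), 131 towards XY (0.744%) and 70 towards XX (0.397%), or for 310 (1.76%) after quantile normalization. Between TS13 and TS34 it changed for 645 genes (3.66%), 316 towards XY (1.79%) and 329 towards XX (1.87%). The count of changes from TS24 was 60 without XX replicate 2 and 113 without XY replicate 2 of TS24; for arrays of TS34 it was 79 without XX replicate 3, 114 without XY replicate 3, 322 without XX replicate 1 and 436 without XY replicate 1. The count of changes from TS13 was 421 without XX replicate 3.

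Genes of meiosis lower in XY at TS34 were not all called at TS24. Timing was not tested between genes. In XX cells Stra8 had means of 5.16, 7.47 and 10.22 over the 3 stages, and in XY cells of 5.40, 5.72 and 5.57. Its sex difference was already called at TS24 (-1.75 ± 0.24) and changed by a further -2.90 ± 0.33 to TS34. That of Meioc changed by -3.32 ± 0.44. The 2 XX arrays of TS24 lay far apart for Meioc (mean 6.81, standard deviation 1.76) and less so for Stra8 (standard deviation 0.83). The standard errors rest on a spread shared by all groups and do not show this. Spata22 and Terb1 differed by 0.06 ± 0.23 and -0.19 ± 0.26 at TS24, neither called, and their differences changed by -3.54 ± 0.30 and -3.08 ± 0.35. In XX cells Spata22 was at a mean of 4.85 at TS24 and 8.27 at TS34. From TS13 to TS34 the median change of all genes was -0.141 in XX and -0.042 in XY cells. Stra8 rose over these stages by 5.06 ± 0.22 in XX cells, and the change in XY cells was 0.17 ± 0.22 (not called). Of the break and recombination genes 10 of 25 had a sex difference that grew towards XX after TS24, and of the axis genes 3 of 13. Over all genes 0.397% changed in that direction.

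Genes higher in XY at TS34 were not all called at TS24 either. Mgst2 was already apart at TS24 (3.55 ± 0.37), and its change to TS34 was 0.95 ± 0.50 (adjusted p = 0.469). Nanos2 was not called at TS24 (0.64 ± 0.26), and its difference rose by 3.26 ± 0.34 to TS34. Its XY means were 6.06, 6.43 and 9.86 over the stages. Tdgf1 fell in both sexes from TS13 to TS34, at -4.03 ± 0.26 in XX and -1.56 ± 0.26 in XY, and the sex difference changed from TS13 to TS34 by 2.47 ± 0.36. Morc1 fell in XX, at -2.05 ± 0.23, and its change in XY was 0.62 ± 0.23 (not called). Nanos3 fell in XX, at -1.88 ± 0.22, with a change of 0.03 ± 0.22 in XY that was not called. Tdrd5, by contrast, rose in XY by 2.45 ± 0.22, with a change of -0.21 ± 0.22 in XX that was not called.

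Id2, Id3, Phlda2 and Rhox6 changed in XY cells. Id2 fell in XY from TS13 to TS34, at -2.02 ± 0.31, and its change in XX was 0.03 ± 0.31 (not called). Id3 fell in XY, at -2.03 ± 0.24, with 0.00 ± 0.24 in XX (not called). Phlda2 and Rhox6 fell in XY, at -3.32 ± 0.23 and -2.91 ± 0.25, with -0.49 ± 0.23 and -0.25 ± 0.25 in XX, neither called. Rhox13 went the other way, rising by 2.33 ± 0.33 in XX, with -0.28 ± 0.33 in XY (not called). The FGF targets Dusp6 and Etv5 fell in XX, at -2.21 ± 0.30 and -1.95 ± 0.25, and their changes in XY, -0.89 ± 0.30 and -0.72 ± 0.25, were not called. From TS13 to TS34 the sex difference changed by -2.05 ± 0.43 for Id2, -2.83 ± 0.32 for Phlda2, -2.66 ± 0.36 for Rhox6 and 1.23 ± 0.36 for Etv5, all called; for Dusp6 it was 1.32 ± 0.42 (adjusted p = 0.0628).

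**Figure D5:**
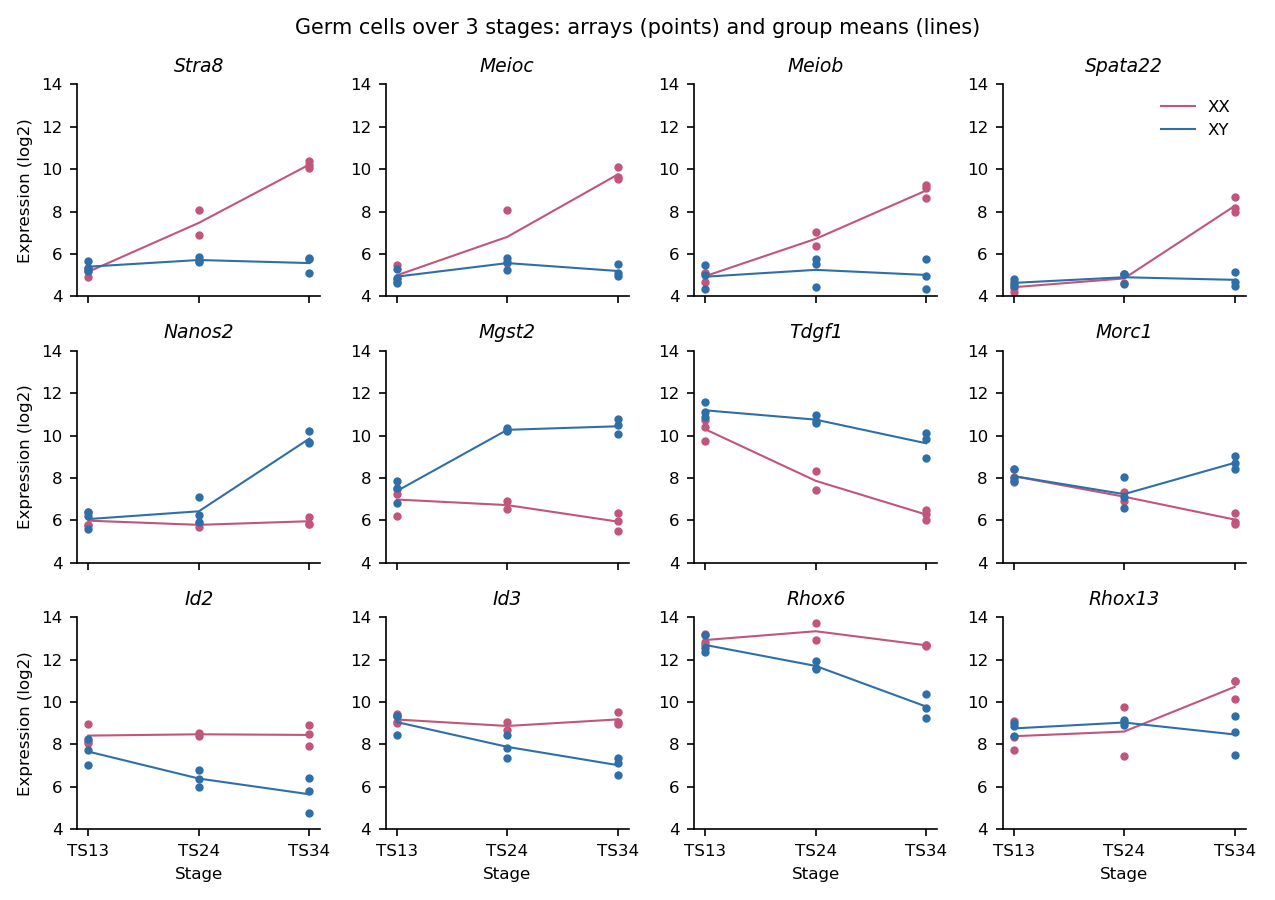
Expression (log2, vertical axis) of 12 genes in XX (red) and XY (blue) germ cells at TS13, TS24 and TS34 (horizontal axis, stages evenly spaced). Points are single arrays and lines join group means of 3 arrays, or 2 for XX at TS24; Stra8 and Spata22 leave the XY level in XX cells, Nanos2 leaves the XX level in XY cells, and Id2 and Rhox6 decline in XY cells.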

How the data were processed

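RNA of 36 sorted samples in 12 groups of 3 was read on arrays, each hybridised with 1 sample. The authors deposited log2 expression values per probe set, made with RMA per the submitters' processing notes; no version or setting of it is given in the sources used here, and array medians differ, so the arrays do not share 1 distribution. For arrays their number limits the precision.

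Of 35557 probe sets, 21789 had exactly 1 gene symbol in the platform annotation, 1621 had several and 12147 had none there. Through Entrez identifiers, 21698 symbols were updated to RefSeq (GRCm38.p6). Of 19938 genes, 999 had more than 1 probe set, of which that with the largest mean value was kept. Genes above the 25th percentile of the array on at least 3 arrays were tested (17615; 2323 removed).

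Differences were fitted in R 4.3.3 by limma 3.58.1, with a mean for each group, 35 arrays and no covariates (23 residual and 25.97 prior degrees of freedom; median standard error at TS34 0.211). The library of XX germ cells at TS24 replicate 3 was left out because its germ cell markers are low. Genes with several probe sets were also compared between them: none of the called genes named differed in sign.

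The members, the 29 gene lists and the comparisons were chosen with earlier results of these data known. Named are the 15 largest differences in each direction among genes called on the deposited values and after quantile normalization whose arrays do not overlap, 4 markers, up to 6 members a list (more where groups are described in full), the 10 largest changes between TS24 and TS34 and up to 5 X-linked genes a direction. Small RNA genes, further Rhox genes and further members were chosen after their values were seen. Alternatives were quantile normalization, median centring, array weights, other filters, a variance trend, mean probe sets, other sets of arrays, a replicate block and leaving out single arrays. The procedure was also run on simulated data with known changes. Their noise was independent for each gene, with no shift in level between arrays, so that run does not cover such shifts.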

Additional observations from a re-analysis of the deposited data

Results flagged for a closer look

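The sex difference of germ cells was not the same at TS34 as before. Tested as a difference of differences with limma, it changed for 201 genes between TS24 and TS34 and for 645 between TS13 and TS34, at an adjusted p under 0.05. Among the 10 genes with the largest change from TS24 to TS34, 3 moved towards XY: Nanos2 by 3.26 (log2), Gtsf1l, a relative of the piRNA factor gene Gtsf1, by 2.87, and Fabp9 by 2.56. The other 7 moved towards XX. The recombination gene Spata22 changed by -3.54, Meioc by -3.32, the telomere gene Terb1 by -3.08 and Stra8 by -2.90. Ugt8a, an enzyme gene of sphingolipid synthesis, changed by -2.78, Rhox13 by -2.67 and BC051142 by -2.56. Ugt8a had a difference of 0.83 at TS24, not called, and of -1.95 at TS34. Gtsf1l was at means of 9.60, 8.26 and 6.14 in XX cells over the 3 stages and of 9.64, 7.88 and 8.62 in XY cells. At TS24 the XX group held 2 arrays, which lay far apart for Meioc and Rhox13 (standard deviations 1.76 and 1.65).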

How the results depend on the processing

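The direction and the call of the 30 genes with the largest differences, the 4 markers included, were the same in all 750 values recomputed under the other settings. The way these genes were chosen largely fixed that outcome. Of 696 such values of 28 other named genes, 662 were the same, 32 fell short of the threshold, 2 passed it and none reversed. For the count of genes called at TS34, array weights gave 5066, and leaving out single arrays gave 1204 to 2533 (1544 to 2270 after quantile normalization). The 6 arrays alone gave 1402 and germ cell arrays only 1609, where the spread was not shared with all groups. For TS24 the count was 742 after quantile normalization, 731 after median centring, 767 with all 36 arrays, 95 with array weights, 88 to 306 with single arrays of TS24 left out and up to 408 with single arrays of the other stages left out. For the change from TS24 to TS34 it was 310 after quantile normalization, 453 with array weights and 60 to 436 with single arrays left out, and for the change from TS13 286 with all 36 arrays, 1511 with array weights and 421 to 857. The causes were not tested. Where an arm kept 1 array, it was assumed to vary like the other groups. Array weights also moved several lists towards more higher members, for example piRNA and germ granule genes from 6 to 10.

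The replicate numbers are shared between the sexes in the labels. Deviations of XX and XY arrays with the same number correlated at -0.23, 0.036 and -0.018, and those with unlike numbers at -0.184 to 0.181. These deviations also hold the shifts in overall level between arrays, so they cannot decide whether the numbers pair the arrays. With the replicate number as a block, 1566 genes were called at TS34, 219 at TS24, 128 for the change from TS24 and 547 for the change from TS13. Quantile normalization with the block (1935 at TS34), quantile normalization of the 6 arrays alone (2401) and its fits without single arrays were added after seeing the data. Near the bottom of the scale, background takes up part of a signal and shrinks differences, so a gene not called there may still differ.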
